A study of Homo sapiens with 7 samples.

Results

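The genes described here carry the unfolded protein response and the integrated stress response. They are the transcripts whose symbol in the deposited table is ATF4, ATF6, DDIT3, PPP1R15A, PPP1R15B, XBP1, ERN1 or TRIB3, which gives 8 genes in 9 rows out of 24721 symbols and 25918 transcripts. XBP1 has 2 rows. The study mapped N6-methyladenosine (m6A), an internal mark of messenger RNA, in untreated cells labelled HepG2, an established line from a human liver carcinoma. Poly(A) RNA was fragmented and precipitated with an m6A antibody, and the series held 4 precipitated (m6A-IP) and 3 input libraries, all of the same line and condition. The deposited values are 1 table for the 7 libraries together, with no value per library, so depth and replicate error are unknown and no treatment, dose or time is compared.

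When unfolded proteins gather in the endoplasmic reticulum (ER), sensors in its membrane signal to the nucleus and the ribosome. ERN1 (IRE1) is a kinase and ribonuclease that cuts the mRNA of XBP1, so that an unconventional splice changes the reading frame and gives the active transcription factor. ATF6 is a membrane-bound transcription factor released by proteolysis. The remaining sensor, EIF2AK3, and its sister kinases phosphorylate the initiation factor eIF2, which lowers translation in general while ATF4, whose start lies behind upstream reading frames, is translated more. ATF4 drives DDIT3 (CHOP), the pseudokinase TRIB3 and PPP1R15A (GADD34). PPP1R15A and PPP1R15B (CReP) bring protein phosphatase 1 to eIF2 and end the response, the first as an induced subunit and the second as a constitutive one.

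The labelled cell type was not borne out by its markers. The expression quantile is the authors' value from 0 to 1 that ranks transcripts, and the lowest value, 0.314, is shared by 8139 of them. Of 10 liver genes 6 (ALB, AFP, TTR, SERPINA1, APOB and APOH) were at the lowest expression value of the table, the highest was FGB at 0.619, and none had a peak. HNF4A stood at 0.509. Of 5 genes of ovarian or Müllerian epithelium, the highest was MSLN at 0.968, MUC16 and SOX17 stood at 0.668 and 0.647, and all 3 had a peak. PAX8 at 0.496 and WT1 at 0.333, near the lowest value, had none. Of 4 melanocyte genes, MITF stood at 0.703 and had a peak. PMEL at 0.447, MLANA at 0.454 and TYR at the lowest value had none. The 4 immune genes did not pass 0.479. Which cells the values describe therefore rests on the label alone, and its part in the results was not tested.

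Of the 8 genes, 6 had at least 1 m6A peak and 2, ATF4 and PPP1R15A, had none. For comparison, 29.1% of all gene symbols had a peak, or 41.5% of those above the lowest expression value. By transcript it was 27.9% of all, 35.0% of coding ones and 45.8% of coding ones above the lowest value. The 8 genes are all well expressed, which sets them apart from that background, so each is set beside coding transcripts of like expression below. PPP1R15B carried 5 peaks, ATF6 3, TRIB3 2, and DDIT3, ERN1 and XBP1 1 each. Among coding transcripts with a peak, 44.6% had at least 2, 18.4% at least 3 and 3.51% at least 5. All 6 genes with a peak had one that the authors place around the stop codon, in XBP1 in 1 of its 2 rows. That label is common, with 27.6% of all peaks of coding transcripts. The share of transcripts with such a peak was not computed, so the count is not read as a trait of these genes. The peak score is the authors' own value, whose scale is not stated, and it is used only to rank peaks. Over the table it ran from 2.00 to 7.91 with a median of 3.15.

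Peaks are listed by their distance in nucleotides (nt) from the transcript's 5' end. The transcripts of 4 genes could be laid on a GENCODE transcript in 1 way only. The sequences below are shown because they are the matches to the m6A consensus RRACH closest to the peaks the results turn on (R stands for a purine and H for any base but guanine). They come from GENCODE release 29 with T for U, written 5' to 3'. Each pentamer stands in capitals with 10 bases on either side. The capitals mark a match, not a measured base.

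ATF6, peak 2115: actgagcgtgGGACCctgccagact

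ERN1, peak 2979: cagccacgagAGACTcttccagccc

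TRIB3, peak 1538: ggtccctgatGGACTggggctggac

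PPP1R15B, peak 344: ggcaaggccgAGACTctgtaggctt

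The strongest coding peak of PPP1R15B is shown with its whole window of 50 nt on either side, 101 nt in all, because it held 3 such pentamers, in capitals at 47 and 14 nt before and 21 nt after the listed position.

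PPP1R15B, peak 1138: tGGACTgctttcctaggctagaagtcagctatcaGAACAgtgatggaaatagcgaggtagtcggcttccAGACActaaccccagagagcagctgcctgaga

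The 2 regulatory subunits of the eIF2 phosphatase differed in the table. PPP1R15B (chromosome 1, 202639115 to 202647567, minus strand) had 5 peaks at an expression quantile of 0.885. PPP1R15A (chromosome 19, 54067461 to 54071131, plus strand) had no peak at a higher quantile, 0.942. Of the 1009 coding transcripts within 0.02 of PPP1R15B in expression, 33 (3.27%) had as many peaks or more. Here and for the other genes, numbers of peaks were compared at like expression only, not at like length. The GENCODE transcript of PPP1R15B is the longer of the pair, 5227 nt against 2378 nt. Of the 1024 around PPP1R15A, 305 had no peak, and 70.2% had one (95% Wilson interval 67.3 to 72.9%). Its lack of a peak was thus shared by many transcripts of its level. Among those whose GENCODE length was also within 25% of the member's, 73.4% of 274 had a peak around PPP1R15A and 81.3% of 155 around PPP1R15B. The GENCODE transcript of PPP1R15A holds 35 RRACH pentamers in 2378 nt (1.47 per 100 nt), and that of PPP1R15B 88 in 5227 nt (1.68 per 100 nt). The pentamer was therefore frequent in the transcript without a peak too.

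The peaks of PPP1R15B ran from the transcript start to the stop codon, and 4 of the 5 lay in its first exon of 2325 nt. The start peak, at position 76, scored 2.61. The next, at 344, scored 2.42 and was the only one among the 8 genes that the authors place in the 5' UTR. Coding peaks followed at 590 (score 2.88) and 1138 (4.90), which on the GENCODE frame are codons 62 and 245 of 713. The peak around the stop codon, at 2469 in exon 2, scored 3.31 and lay 76 nt before the stop codon. The coding peak at 1138 stood above 91.6% of all peaks of coding transcripts, while the other 4 lay between the percentiles 20.8 and 55.5. No peak was listed in its long 3' UTR of 2705 nt.

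The 5' UTR peak of PPP1R15B lay beside an upstream reading frame. Short upstream frames are a known feature of mRNAs that stay translated while eIF2 is phosphorylated. The GENCODE 5' UTR of PPP1R15B has 2 upstream AUG codons, and the longer frame has 51 codons. The listed peak position fell 16 nt after the first base of that frame's stop codon and 62 nt before the main start codon. The adenosine of the AGACT printed above for this peak lay 6 nt before the first base of the same stop codon. Fragments of about 100 nt do not resolve such distances, so the mark cannot be placed within or outside the frame. By the same count PPP1R15A has 2 upstream AUG codons, TRIB3 and DDIT3 3 each, and ATF6, ERN1 and XBP1 none. None of the other genes with upstream AUG codons had a peak listed in the 5' UTR, and ATF4 and PPP1R15A had no peak at all. The label is rare, with 2.8% of all peaks of coding transcripts, so its absence from the other genes says little.

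**Figure D1:**
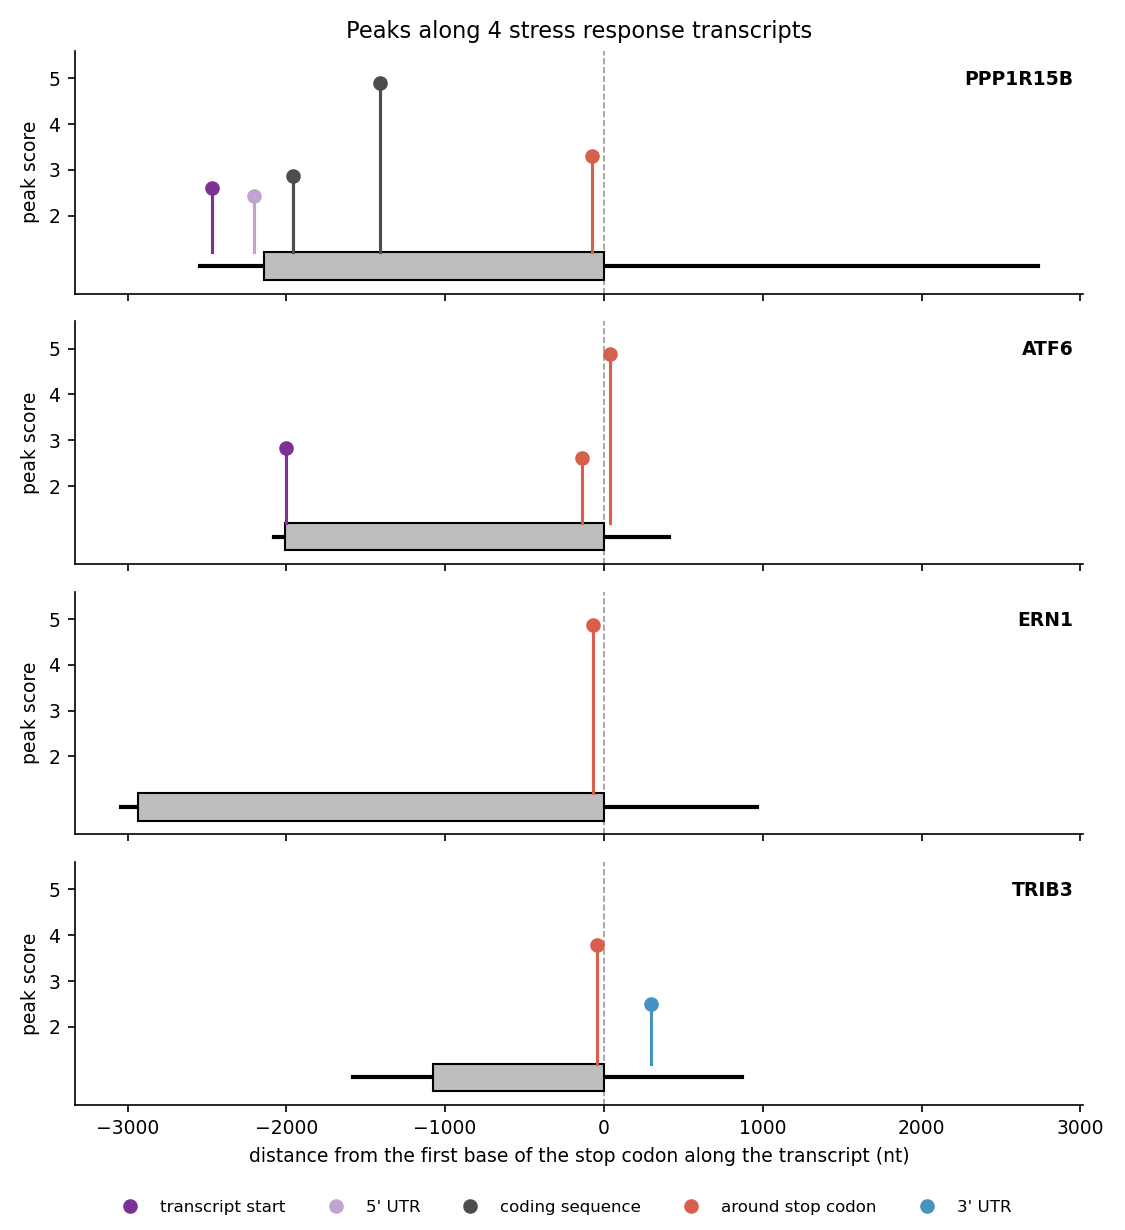
Peaks along PPP1R15B, ATF6, ERN1 and TRIB3. The x axis is the distance from the stop codon along the transcript in nt, the height of each point is the authors' peak score, colours give the authors' segment, the grey box is the coding sequence and the black line the UTRs. Each of the 4 transcripts has a peak within 200 nt of the stop codon, and the strongest of PPP1R15B lies in the coding sequence.

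The sensors ATF6 and ERN1 had high-scoring peaks at the stop codon. ATF6 (chromosome 1, 160002708 to 160195476, plus strand, quantile 0.841) had its strongest peak at position 2115 in exon 16, with a score of 4.88, 37 nt after the first base of the stop codon. That score stood above 91.5% of all peaks of coding transcripts and above 87.2% of stop codon peaks. A second peak in the same exon, at 1937, scored 2.61 and lay 141 nt before the stop codon. The third, at position 76, scored 2.82 and fell in the first exon 8 nt after the start of the coding sequence, under the authors' label for the transcript start. Of the 1004 coding transcripts of like expression, 14.7% had 3 peaks or more.

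ERN1 (chromosome 17, 59474122 to 59561234, minus strand) was the least expressed of the 8 genes, at a quantile of 0.727, and had 1 peak. It lay at position 2979 in exon 22, 66 nt before the stop codon, at codon 956 of 977, with a score of 4.88. That is above 91.4% of all peaks, and above the top score of 81.3% of the transcripts with peaks at its level. It was 1 of the 3 scores above 4 among the 8 genes. Top scores were higher in general around the less expressed members. The median top score of transcripts with peaks was 3.71 around ERN1 and 3.55 around ATF6, against 3.16 around TRIB3 and around ATF4. Of the 972 coding transcripts of like expression, 64.4% had a peak (61.3 to 67.4%). The table's transcripts of ATF6 and ERN1 end early, with last exons of 617 and 1171 nt against 5625 and 5059 nt in GENCODE. Peaks in the remaining 3' UTR of the longer transcripts would not be listed in these rows. The length to match on is therefore uncertain. Around ERN1, 70.0% of 253 transcripts of like expression had a peak when matched on the 3988 nt up to the row's end, and 86.2% of 87 when matched on the full GENCODE transcript of 7876 nt. For ATF6 it was 65.2% of 282 on 2488 nt and 88.0% of 92 on 7496 nt.

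At both sensors RRACH lay at or next to the listed position, although fragments of about 100 nt do not resolve such distances. At ATF6 the adenosine of GGACC was at the listed position itself, and 2.22% of positions along that transcript have a pentamer as close. At ERN1 the adenosine of AGACT was 1 nt upstream, which holds for 4.55% of positions. These were the closest matches among the 11 peaks of the 4 genes laid on GENCODE in 1 way. For the rest of the 11, 21.3 to 59.5% of positions had a pentamer as close. The scores of both sensor peaks came next among the 8 genes after that of the coding peak of PPP1R15B. There the nearest pentamer was 14 nt away, which holds for 42.2% of positions.

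XBP1, the target of ERN1, has 2 rows over the same span (chromosome 22, 27520548 to 27526560, minus strand). Their expression quantiles were nearly equal, 0.937 in both, and each had 1 peak in a last exon of 1173 nt. The row described as the unspliced form has it at position 1000 in exon 4 with a score of 3.33, labelled around the stop codon. The row described as XBP1(S), the spliced form, has it at position 1097 in exon 5 with a score of 3.45, labelled 3' UTR. The positions differ by 97 nt, which is the length of the second exon in GENCODE, and without that exon both fall at the same base. They are therefore counted as 1 peak here. Both scores were above the median of the table, 3.15, and stood at the percentiles 56.4 and 60.1 of all peaks.

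The XBP1 peak fell between the stop codons of the 2 reading frames. ERN1 removes an intron of 26 nt, after base 496 of the coding sequence, which turns a frame of 261 codons into one of 376. In the last exon the stop codon of the unspliced frame begins at nt 185 and that of the spliced frame at nt 556. The peak was placed at nt 450, which is 265 nt after the first stop codon and 106 nt before the second. It is thus in the 3' UTR of the unspliced frame and in the last part of the spliced coding sequence. GENCODE's spliced transcript has 6 exons, whereas the XBP1(S) row lists this exon as the fifth, the number it has when the intron is kept. Its 3' UTR label goes with the unspliced frame. The label of the row described as unspliced, around the stop codon, would go with the spliced frame, whose stop codon is 106 nt away. In the 4 genes placed in 1 way, peaks with this label lay up to 141 nt from the stop codon. The 3' UTR peak of TRIB3 lay 294 nt after it. Whether the label reaches 265 nt is therefore not settled. The row described as unspliced could not be laid on a GENCODE transcript as a whole, so the reading frame behind its label is unknown. The row descriptions therefore do not tell which form carried the mark. Placing the peak with the intron removed, or with a longer second exon, moved it to nt 476 or 435, still between both stop codons. The region around it had little RRACH. The nearest was 50 nt away at nt 450 and 24 nt away at nt 476, and none was within 50 nt at nt 435. XBP1's GENCODE transcript has no GGACT.

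**Figure D2:**
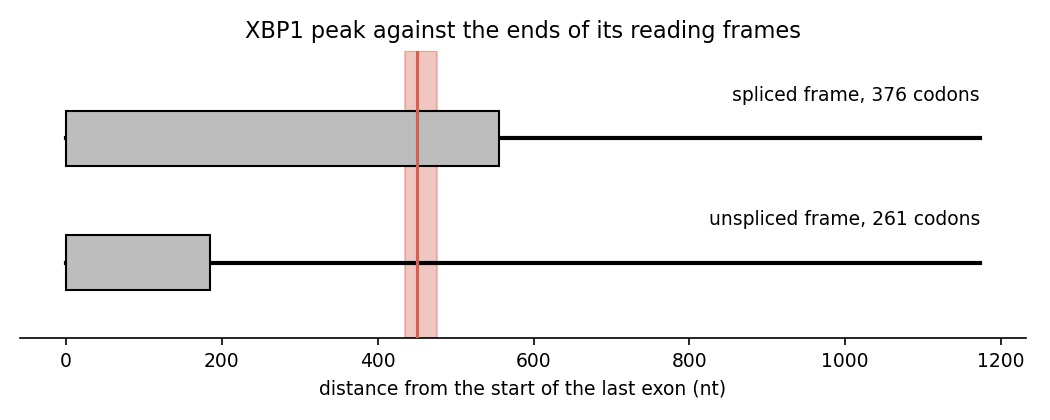
The last exon of XBP1, with the distance from its start in nt on the x axis. Grey boxes are the coding part in the spliced and unspliced frames, the red line is the peak at nt 450, and the shaded band runs from nt 435 to 476, the other placements. The peak lies past the unspliced and before the spliced stop codon.

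ATF4, the central transcription factor of the integrated stress response (chromosome 22, 38246515 to 38248637, plus strand), was the most expressed of the 8 genes, at a quantile of 0.994, and had no peak. Of the 136 coding transcripts at this quantile or above, 68 had a peak and 68 had none. Within 0.02 of its quantile, 61.6% of 648 had a peak (57.8 to 65.2%), so many transcripts of its level had none. Matching on length as well gave 52.0% of 150 (44.1 to 59.8%) with the GENCODE transcript of 1419 nt nearest in span, and 69.1% of 162 (61.7 to 75.7%) with one of 2019 nt. Among the GENCODE transcripts used here, that of ATF4 had the lowest density of RRACH, 19 in 2019 nt or 0.94 per 100 nt, against 1.28 to 2.13 per 100 nt in the other 7. Its 5' UTR has 7 upstream AUG codons. Which GENCODE transcript the row represents was not settled, since no peak ties its exons. CEBPB, a transcription factor that partners ATF4 and is expressed at the same quantile, 0.994, had 2 peaks with a top score of 4.04.

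Of the targets of ATF4 among the 8 genes, TRIB3 and DDIT3 had peaks and PPP1R15A had none. TRIB3 (chromosome 20, 309308 to 326203, plus strand, quantile 0.980) had a peak at 1538, 43 nt before the stop codon, with a score of 3.78, and a weaker one at 1875 in the 3' UTR with a score of 2.50. Both lay in its last exon of 1362 nt. Around TRIB3, 65.6% of 1003 coding transcripts of like expression had a peak and 24.7% had 2 peaks or more. DDIT3 (chromosome 12, 56196638 to 56200567, minus strand, quantile 0.897) had 1 peak at position 721 in exon 4, labelled around the stop codon, with a score of 3.40. That is at the percentile 48.8 of stop codon peaks. Of the 1010 coding transcripts of like expression 758 had a peak, and 50 of the 91 that were also of like length on a transcript of 1067 nt (54.9%, 44.7 to 64.8%). On one of 906 nt it was 35 of 73 (47.9%). DDIT3 could be laid on GENCODE in 3 ways, which place the peak 124 nt before, 33 nt after or 47 nt after the first base of the stop codon. RRACH was within 50 nt in each of the 3, at 12, 30 and 44 nt. MARS, a transfer RNA synthetase gene on the opposite strand, overlaps the DDIT3 row over 63 nt at an expression quantile of 0.974. The 3 placements put the peak at nt 246, 403 or 417 of the last exon of 593 nt, outside 63 nt at either end of the row. Whether reads were assigned by strand is not stated, and any part of MARS in the peak was not tested.

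**Figure D3:**
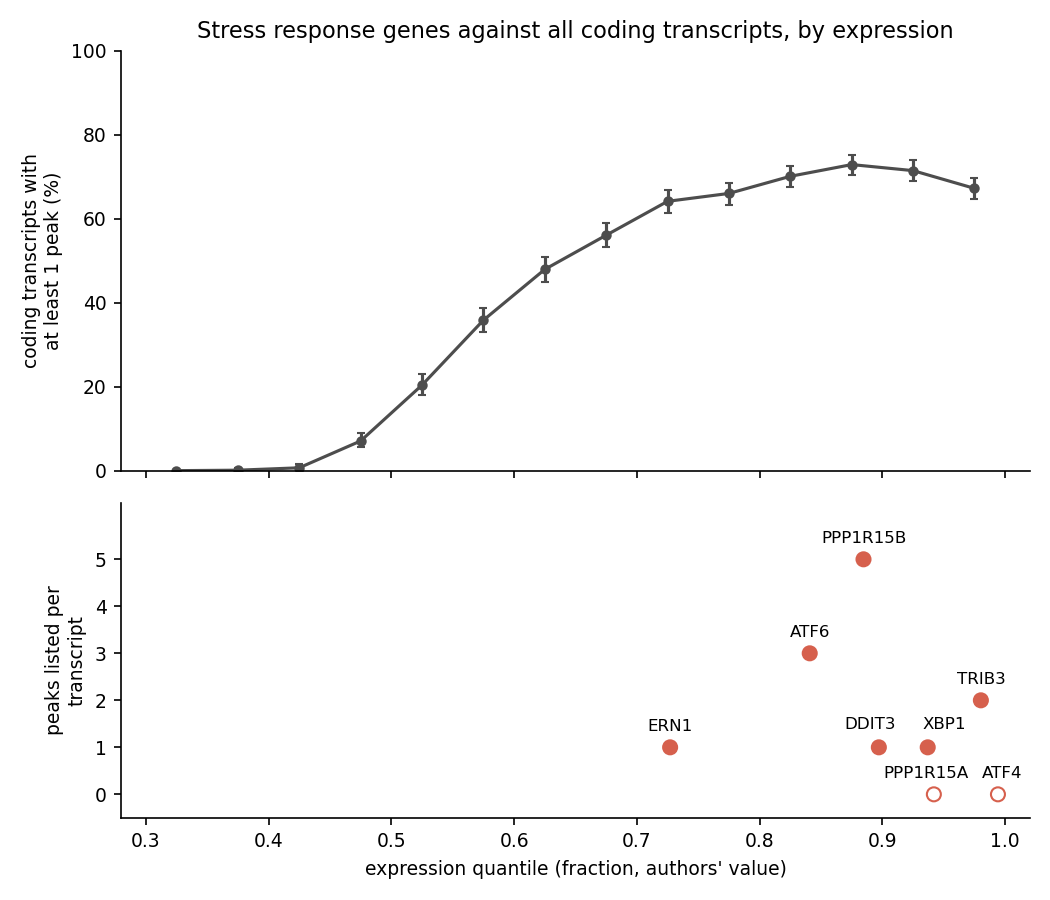
Upper panel, share of coding transcripts with at least 1 peak (y axis, percent) by expression quantile in bins of 0.05, with 95% Wilson intervals. Lower panel, number of peaks of each of the 8 genes (XBP1 once) at its quantile, with open circles for ATF4 and PPP1R15A, which had none. The 8 genes lie between 0.727 and 0.994.

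The authors' segment and the position on GENCODE were the same for the 11 peaks of the 4 genes placed in 1 way. All 11 had RRACH within 50 nt, at a median distance of 14 nt, and 5 had GGACT. The first count says little on its own, because 71.0 to 92.5% of all positions along these 4 transcripts have RRACH within 50 nt. For GGACT the share of positions was 12.0 to 18.2%. The 5 were the start peaks of ATF6 and PPP1R15B, the ATF6 peak at 1937, the PPP1R15B peak at 1138 and the TRIB3 peak at 1538.

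Within their segments the scores were ordinary apart from those named above. The start peaks of ATF6 and PPP1R15B, both at position 76, stood at the percentiles 55.1 and 42.5 of start peaks, which have the lowest median of the 5 segments, 2.73. Stop codon peaks have the highest median, 3.45. Of the 6 genes with a stop codon peak, ATF6, ERN1 and TRIB3 had one above that median, and those of DDIT3, XBP1 and PPP1R15B were below. With a score of at least 3 required, 6 of the 8 genes still had a peak, against 20.1% of all symbols. With at least 4 it was 3, against 10.5%. All symbols include those at the lowest expression value, and shares at like expression were not computed for these scores. Among the 85 pathway genes described below, the shares were 50.6% and 30.6%.

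**Figure D4:**
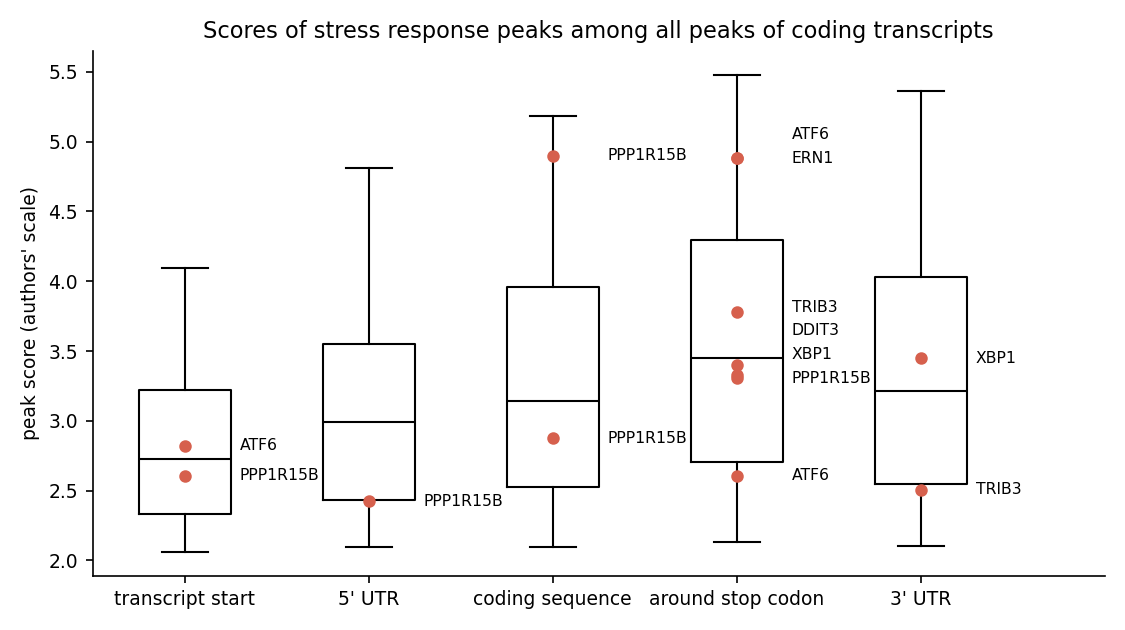
Peak scores (y axis, authors' scale) by segment for all peaks of coding transcripts, with boxes for quartiles and median and whiskers from the fifth to the 95th percentile. Red points are the peaks of the 8 genes, with XBP1 shown once for each of its rows. ATF6 and ERN1 at 4.88 lie above the upper quartile of stop codon peaks, and PPP1R15B at 4.90 above that of coding peaks.

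The genes most like each member were sought among coding genes with the same number of peaks and the same segment of the top peak, by distance in expression quantile and top score in SD units over this 1 table. They were ARAP3 for ATF6 (distance 0.217), KIF26A for PPP1R15B (0.168), ASB8 for ERN1 (0.116), GPR175 for DDIT3 (0.0445) and MRPL12 for TRIB3 (0.0329). For the 2 rows of XBP1 they were RTN4RL2 (0.029) and NINJ1 (0.0685). PPP1R15B and ATF6, with the fewest candidates (69 and 222), had the most distant neighbours.

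The wider pathway was followed in 85 further genes in 6 lists by role, all found in the table. Of these, 59 had a peak (69.4%, 95% Wilson interval 59.0 to 78.2%), and coding transcripts of like expression had one in 62.4% of cases on average. The median of their top scores was 3.72, and 32 of the 59 had the top peak around the stop codon. Over all coding transcripts, stop codon peaks were 27.6% of peaks and had the highest median score, 3.45. The share of top peaks with this label was not computed over all coding transcripts, so the 32 have no direct comparison. In the machinery of eIF2, 8 of 13 genes had a peak (61.5%, 35.5 to 82.3%), against 67.0% of transcripts of like expression. They included the ER sensor kinase EIF2AK3 (PERK), with 2 peaks and a top score of 4.44 at a quantile of 0.613. The amino acid sensor EIF2AK4 (GCN2) had a top score of 3.70, and both top peaks were in the coding sequence. The exchange factor subunit EIF2B1 scored 3.77 and the eIF2 subunit EIF2S3 3.31, while the haem-regulated kinase EIF2AK1 had no peak at 0.940. Among the other transducers and their processing factors 7 of 12 had one (58.3%, 32.0 to 80.7%), against 52.9% of like transcripts. MBTPS1, the protease that first cuts ATF6, had 3 peaks and a top score of 5.37, and RTCB, the ligase that joins the cut XBP1 mRNA (C22orf28 in the table), scored 4.61. WFS1 and CREB3L2 followed with 4.59 and 4.06. ATF6B, the paralogue of ATF6, had no peak at 0.951.

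Among the stress response transcription factors and regulators 5 of 8 had a peak (62.5%, 30.6 to 86.3%), against 65.6% of like transcripts. CEBPG, a partner of ATF4, scored 4.36, DDIT4, an inhibitor of mTORC1, 4.08, and the oxidative stress factor NFE2L2 3.47, while NUPR1 had none at 0.982. Of the amino acid and stress genes that ATF4 regulates, 15 of 18 had one (83.3%, 60.8 to 94.2%), against 61.5% of transcripts of like expression. SLC7A5, an amino acid transporter, had 5 peaks and a top score of 6.18 in the 3' UTR, the glutathione-degrading enzyme CHAC1 scored 5.33, STC2 4.55 and the angiogenic factor VEGFA, with 5 peaks, 4.07. The enzyme CTH had none at 0.715. ER chaperones and folding enzymes had peaks in 12 of 19 genes (63.2%), near the 62.9% of like transcripts. The co-chaperone DNAJB9 scored 5.50 at a quantile of 0.548, the lectin chaperone CALR 5.15, the exchange factor SIL1 5.12 and the disulphide isomerase PDIA4 4.44. CANX had none at 0.969. HSPA5 (BiP), the chaperone that holds the sensors inactive, had none at 0.952 and was added after its value was seen. For ER-associated degradation 12 of 15 had one (80.0%, 54.8 to 93.0%), against 64.7% of like transcripts. The derlin DERL2 scored 6.58, the mannosidase-like EDEM3 5.92, the adaptor SEL1L 5.81 and the ubiquitin ligase SYVN1 5.22. SELENOS (SELS in the table) had none at 0.756. The intervals of the lists overlap widely, and differences between lists were not tested.

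**Figure D5:**
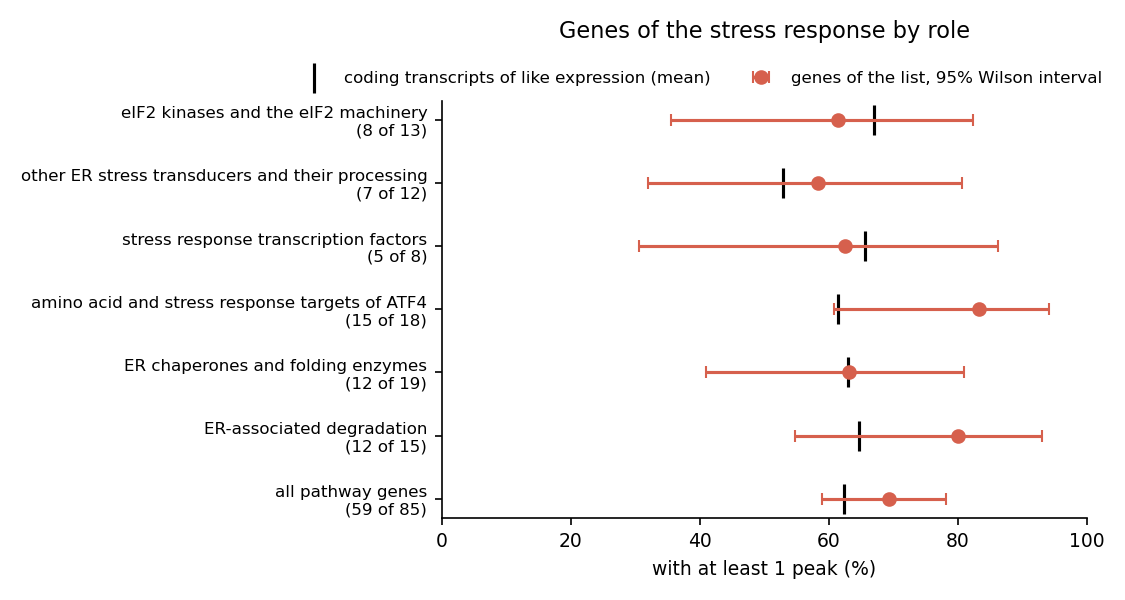
Share of genes with at least 1 peak (x axis, percent) in 6 lists of stress response genes and in all 85, as red points with 95% Wilson intervals. Black bars give the mean share among coding transcripts of like expression. Each interval includes its black bar.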

How the data were processed

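The m6A-IP and input libraries (4 and 3, grouped by title) were deposited as 1 table. Per the file headers, it gives the authors' expression quantile, a fraction from 0 to 1, the authors' count of peaks per transcript, and a score, position, exon and segment per peak. The table's build and annotation, the aligner and the peak caller were not given in the sources used here. Depth per library is unknown. Positions on chromosomes follow the table, in the build it uses, with the first base as 1. RNA was fragmented to about 100 nt, per the labels' protocols, and no score is under 2.00, so the authors' threshold shapes every count. The 8 genes and all lists were chosen with earlier results of these data known.

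Rows were laid on GENCODE release 29 transcripts of the same gene, chromosome and strand where the difference in genomic span equalled the changes in first and last exon length, the 5' end moved by at most 100 nt, and every peak fell in an exon of the listed number and length. This rule was chosen after seeing the data, because no row with peaks matched exactly. Only transcript sequence was used. ATF4 and PPP1R15A, without peaks, used the transcripts of 2019 and 2378 nt. The other motif counts run to the 3' end of the row where it is shorter, and those of DDIT3 use the transcript of 906 nt. Motifs were searched on the transcript strand, with distances measured from the adenosine before C. Like expression means a quantile within 0.02, and like length a length within 25%, taken from the coding GENCODE transcript of the symbol nearest in genomic span. For ATF4, ATF6, DDIT3 and ERN1 it differs from the transcript used for motifs, and both are given. A length was found for 82.0% of coding rows. Intervals are 95% Wilson intervals (statsmodels 0.14.6) and cover counting error only. Genes are not replicates, so no test was run. The functions were tested on simulated data. Named pathway genes are the 4 with the highest score in each list and the most expressed without a peak. HSPA5 was added later. Sequences are printed for some peaks only, and 1 is not reported here.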

Additional observations from a re-analysis of the deposited data

How the results depend on the processing

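The number of the 8 genes with a peak was 6 as deposited, 6 with a score of at least 3, 3 with at least 4, and 6 with 1 row per symbol. The share of pathway genes was 50.6% and 30.6% with scores of at least 3 and 4, and 70.2% above the lowest quantile. The share of transcripts of like expression moved beyond its interval within 0.05 for ATF4 (67.5%) and DDIT3 (72.3%). With like length added it was 52.0% for ATF4, 88.0% for ATF6, 54.9% for DDIT3, 73.4% for PPP1R15A, 81.3% for PPP1R15B, 86.2% for ERN1 and 72.8% for TRIB3, on the GENCODE transcript nearest in span. On the transcript used for the motif counts it was 69.1% for ATF4, 65.2% for ATF6, 47.9% for DDIT3 and 70.0% for ERN1. For ATF4 and ATF6 the choice of length thus set whether the share rose or fell. RRACH was found near 11 of 11 peaks within 25 nt, within 100 nt, and with DRACH. Of 7 rows with peaks, 0 matched GENCODE exactly, 1 within 10 nt and 6 with moved ends, a rule chosen after seeing the data. The XBP1 peak's distance from the spliced stop codon was -106 nt, -80 nt with the intron removed and -121 nt with a longer second exon. No paired analysis was possible because the table has no column per library. For the same reason no library could be left out.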
